A study of Caenorhabditis elegans with 2 samples.

Results

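The genes described here are the 124 protein-coding genes of the Sra superfamily of chemoreceptors in Caenorhabditis elegans, out of 19973 protein-coding genes on the 6 nuclear chromosomes of the Ensembl annotation. They were taken by symbol, as sra, srab, srb or sre followed by a number, which gave 35 sra, 23 srab, 12 srb and 54 sre genes. Occupancy of LIM-6, a LIM homeodomain transcription factor, had been profiled at these genes by ChIP-seq with an anti-GFP antibody in 2 libraries of whole late embryos, biological replicates 1 and 2. Both came from hermaphrodites of 1 strain, OP388, which carries unc-119(ed3) III and the insertion wgIs388, and expresses LIM-6 joined at its C terminus to GFP and FLAG. The embryos were collected 5 hours after synchronization by bleaching. There was 1 group and so no contrast between conditions, the promoter of the transgene is not given in the sources used here, and no control library was used here. The lists hold no expression values, so the labelled stage and tissue could not be checked against markers.

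Sra superfamily proteins are predicted receptors with multiple membrane-spanning segments that couple to G proteins, and most studied members are made in a few ciliated sensory neurons of the head and tail. The genes have multiplied by local duplication, so that many lie side by side with similar sequence. LIM-6 acts in a small number of neurons, among them the left ASE taste neuron and several GABA neurons, as well as in non-neuronal cells. In whole embryos, strong occupancy in few cells and weak occupancy in many cannot be told apart.

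Few of these genes had LIM-6 regions near their starts. A gene was counted when a region had its summit in the promoter window, from 1000 bp before to 500 bp after one of its transcript 5′ ends. A gene with several 5′ ends had a window at each, and the numbers of ends were not compared between members and all genes. The relaxed lists used for this count hold peaks together with background that the authors used as input to the irreproducible discovery rate procedure (IDR), which keeps sites judged reproducible. The list that passed is labelled optimal and was derived from both alignments. Whether every kept site was seen in each library was not counted here. The list made from both libraries together, the pooled list, placed a region at 16 of the 124 genes, or 12.9% (exact Clopper-Pearson 95% interval 7.56 to 20.1%), compared with 41.0% of all protein-coding genes. Intervals cover counting error over genes only, and genes of 1 cluster are not independent. Replicate 1 had a region at 22 members, 17.7% against 36.8% of all genes. Replicate 2 had one at 16 members, 12.9% against 42.0%. Both libraries had one at 7 members, 5.65% against 25.0%. Each of these shares was lower at the members than over all genes in both libraries.

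The pooled regions were spread unevenly over the families. Among sre genes, 11 of 54 had one (20.4%), among srab genes 3 of 23 (13.0%), among srb genes 1 of 12 (8.33%) and among sra genes 1 of 35 (2.86%). Within single libraries sre genes again had the highest share, 24.1% in replicate 1 and 22.2% in replicate 2, and srab genes had 21.7% and 13.0%. For sra genes the shares were 5.71% and 2.86%, and for srb genes 16.7% in replicate 1 with no srb gene in replicate 2. Other chemoreceptor genes had similar shares to the whole superfamily, with 16.4% of 587 genes of the Str superfamily, 15.2% of 309 of the Srg superfamily and 16.3% of 289 in the remaining families. Neighbouring genes did not share the low value. Of 504 protein-coding genes of other kinds that lay within 20 kb of a member, 39.1% had a pooled region.

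**Figure D1:**
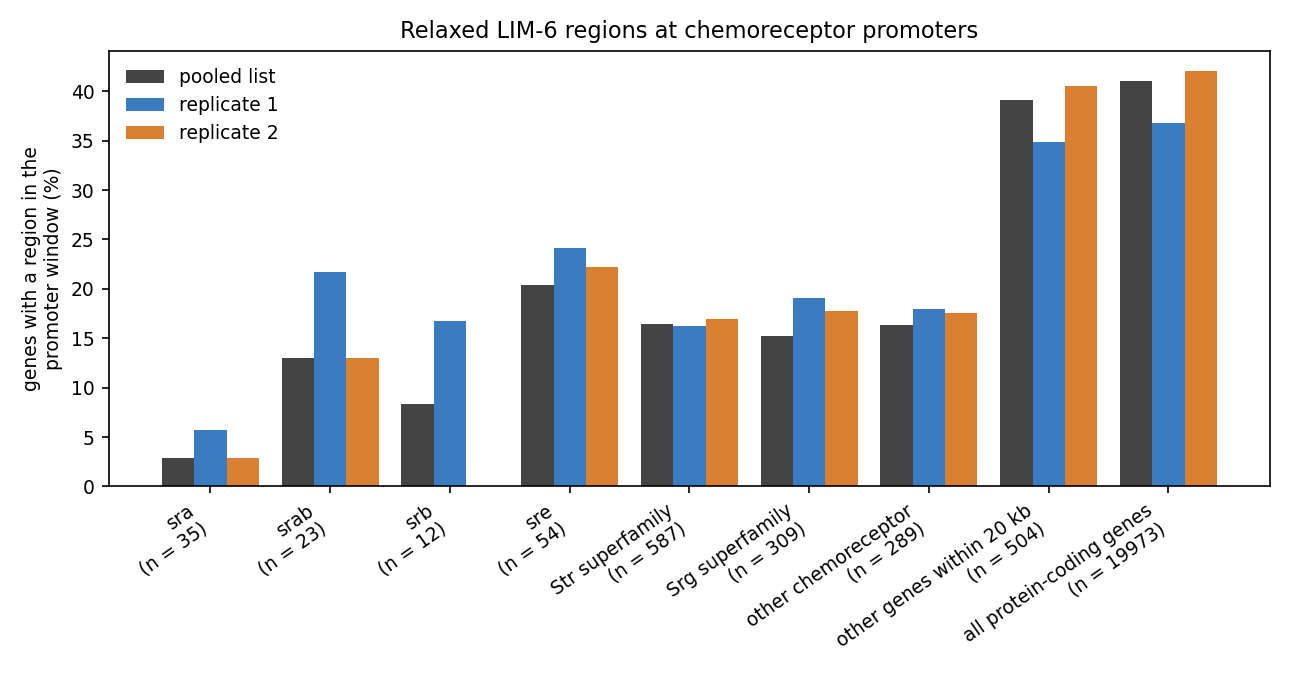
Percentage of genes with a relaxed region in the promoter window (vertical axis), by family or group with its number of genes, in the pooled list and in each library. Bars for the 4 Sra superfamily families lie at 24.1% or below, and those for all protein-coding genes at 36.8% or above.

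Reproducible peaks, the ones kept by IDR, lay in the promoter windows of 2 members, sre-1 and sre-23, which is 1.61% against 2.61% of all genes. The exact Clopper-Pearson interval of the member share, 0.196 to 5.70%, includes the share of all genes. A lower share at members was therefore seen in the relaxed lists but could not be told apart among reproducible peaks. The sre-1 gene, of which a reporter is known from the ADL pair of head sensory neurons, lies on chromosome II at 7709704 to 7711504 on the plus strand. Its peak, at 7708595 to 7709018, had a signal of 56.1 in replicate 1, 58.3 in replicate 2 and 112.4 in the pooled list, where it was the 228th region by signal. The libraries were close to each other at this site, with summits 1 bp and 45 bp from the pooled summit. The summit lay 897 bp upstream of sre-1, in intergenic sequence, and only 97 bp upstream of B0495.9, the neighbour on the opposite strand, so the 2 genes share the interval between them and the summit is nearer to B0495.9. A weaker pooled region inside sre-1, in an intron 506 bp from its 5′ end, had a signal of 22.6, with 18.4 in replicate 2 and none in replicate 1.

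Sequence around the summits is shown for the sre-1 peak, as the member region of highest signal that can be printed, and for 3 weaker regions: those at sre-49 and sre-46, the next by signal, and at srb-18, the single srb gene with a pooled region. Each run has 151 bases, with the summit at its centre, on the plus strand of the ce11 build (chrII:7708732-7708882, chrII:12318990-12319140, chrII:13720907-13721057 and chrV:7514406-7514556). Capitals mark matches to the motifs searched, which were TAATTA and the longer TTAATTAA that contains it, the GAGAGA repeat, and CACCTG, on either strand.
sre-1: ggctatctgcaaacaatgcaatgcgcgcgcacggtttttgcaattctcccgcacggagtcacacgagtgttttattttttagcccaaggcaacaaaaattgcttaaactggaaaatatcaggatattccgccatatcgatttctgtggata
sre-49: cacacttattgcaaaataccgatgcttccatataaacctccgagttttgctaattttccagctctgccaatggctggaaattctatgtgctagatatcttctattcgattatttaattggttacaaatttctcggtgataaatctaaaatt
sre-46: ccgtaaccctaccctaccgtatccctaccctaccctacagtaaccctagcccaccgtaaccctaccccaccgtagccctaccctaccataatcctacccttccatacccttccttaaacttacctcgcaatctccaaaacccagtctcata
srb-18: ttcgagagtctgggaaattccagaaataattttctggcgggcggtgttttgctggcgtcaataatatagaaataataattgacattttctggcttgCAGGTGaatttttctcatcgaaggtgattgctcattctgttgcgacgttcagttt
The sre-1, sre-49 and sre-46 runs hold none of the 4 motifs, and the srb-18 run has CAGGTG, the reverse complement of CACCTG. The sre-46 run is a series of short repeats: within 100 bp of its summit lay 9 copies of CCCTA on either strand, a count reached by 8 pooled regions in all, or 0.0309% of the list. No other member region had more than 1 copy. The repeat was looked for after the sequence had been seen.

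The peak at sre-23 was the highest of any member. The gene lies on chromosome I at 8256301 to 8258939 on the minus strand. Its peak, at 8259494 to 8259625, had a signal of 123.2 in replicate 1, 107.4 in replicate 2 and 235.1 in the pooled list, where it was 22nd. Both libraries placed it among their highest regions, 20th in replicate 1 and 35th in replicate 2. The summit was intergenic, 621 bp upstream of the start of sre-23, and no other protein-coding gene had it in its promoter window. It lay 62 bp from the snoRNA gene ZK265.10, at 8259437 to 8259498 on the same strand, and had a GAGAGA match within 100 bp. Whether the signal belongs to the snoRNA gene or to sre-23 was not tested. With summits near noncoding RNA genes set aside, sre-1 was the 1 member with a reproducible peak, and with each summit given only to the nearest gene, sre-23 was.

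The 570 reproducible peaks were the 570 highest regions of the pooled list, the lowest of them with a signal of 80.0. The other 13 pooled regions at members, not being reproducible, therefore had to lie under that value. The nearest member values on either side of it were 112.4 at sre-1 and 41.7 at sre-49. At sre-49 the summit was in a coding exon 224 bp downstream of the start, and the signal was 15.8 in replicate 1 and 24.3 in replicate 2. For sre-46, in an intron 336 bp downstream, the pooled signal was 41.4, with 34.5 in replicate 2, where it ranked 1158th. No region of replicate 1 overlapped it, although that library had weak regions of 15.4 and 13.7 upstream of the same gene. The divergent pair sre-53 and sre-56 shared a region of 36.3, whose summit was 72 bp upstream of sre-56 and 982 bp upstream of sre-53. Library signals there were 20.2 and 20.3. Replicate 2 had 2 overlapping regions, the stronger with its summit 252 bp from the pooled one and a weaker one, of 15.99, with its summit 17 bp away. The srab-11 region, in an intron 407 bp downstream of the start, had signals of 19.1 and 18.3 and a pooled signal of 33.1.

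Of the 15 pooled regions, 5 overlapped a region in both libraries, namely those at sre-23, sre-1, sre-49, sre-53 with sre-56, and srab-11. That is 33.3%, compared with 49.0% of all 9700 pooled regions in promoter windows. The remaining regions were seen in 1 library or none. At sre-14, whose summit lay 92 bp upstream, replicate 1 alone had a region (20.2, pooled 31.9). Likewise in replicate 1 alone were sra-25 (22.3, pooled 30.1), the single sra gene with a pooled region, and srb-18 (22.9, pooled 28.8). The same held for sre-22 (27.7, pooled 22.4), with the ncRNA gene F36D1.22 40 bp from its summit, and for srab-12 (15.4, pooled 21.6). In replicate 2 alone were sre-46, as given above, sre-24 (21.2, pooled 28.1), srab-23 (16.8, pooled 23.5) and sre-26 (17.9, pooled 21.3). The sre-34 region (pooled 22.0), in an annotated 3′ UTR, overlapped none in either library.

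**Figure D2:**
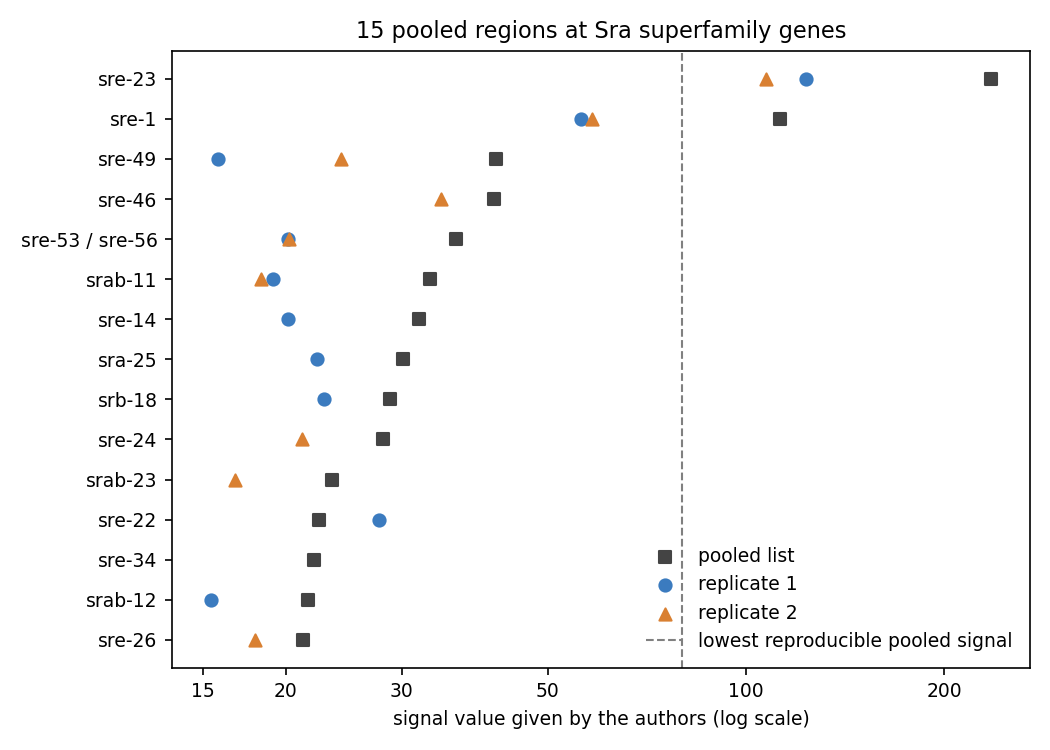
Signal value given by the authors (horizontal log axis) for the 15 pooled regions at members, with the highest overlapping region of each library, and the lowest pooled signal of a reproducible peak, 80.0, as a dashed line. A missing symbol means that the library had no overlapping region, and the pooled symbols of sre-23 and sre-1 alone lie to the right of the line.

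Where a member had a region, the region itself was ordinary in strength for a relaxed list, which holds background too. The −log10 q-value given by the authors was 2.62 at sre-23 and sre-1. At the other 13 pooled regions it was low, from 0.0247 at sre-26 to 0.561 at sre-49. Its median was 0.163 over the 15 regions and 0.128 over all pooled regions in promoter windows. The 15 pooled regions had a median signal of 30.1 and a range of 21.3 to 235.1, beside a median of 28.5 over all pooled regions in promoter windows, and 10 of the 15 were at or above the median of the whole list. In replicate 1 the 24 regions at members had a median of 16.8 beside 17.0 for all promoter regions of that library. In replicate 2 the 15 regions had a median of 18.3 beside 16.3. The sre-23 and sre-1 regions were among the 1000 highest of each library, which is 2 of 24 member regions in replicate 1 and 2 of 15 in replicate 2. The full lists hold 21953 and 27731 regions, so members were not short of high regions by this count. Of the 24 regions of replicate 1, 7 overlapped a region of replicate 2 (29.2%, against 55.6% of all promoter regions of replicate 1). In the other direction it was 6 of 15 (40%, against 47.8%).

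Further members had a region in 1 library but not in the pooled list. In replicate 1 these were 10 genes, sre-2, sre-9, sre-20, sre-36, sre-45, sra-2, srab-1, srab-20, srab-26 and srb-6, with signals from 12.7 at sre-9 to 21.9 at sre-36. In replicate 2 they were 6 genes, sre-30, sre-32, sre-38, sre-48, sra-22 and srab-10, from 11.9 at sre-30 to 21.6 at srab-10. None of the 16 was in both sets. The matching shares of all genes outside the pooled list are not given here. Altogether 32 of the 124 genes had a region in at least 1 of the relaxed lists, 25.8% against 55.6% of all protein-coding genes, and the other 92 had none.

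Of 11 members chosen because their expression or role has been studied, 2 had a region in any list, sre-1 as described and srb-6, and 9 had none. The share with a region was 18.2%, beside 25.8% of all members and 55.6% of all protein-coding genes. Most of the 11 are sra or srb genes, the families with the lowest pooled shares, so the difference from all members is not a trait of studied genes. None of the lists had a region in the windows of sra-6, widely used as a reporter of the ASH and ASI neurons, of sra-7 and sra-9, reporters of the ASK neurons, of sra-11, a reporter of the AIY interneurons, or of sra-1, of male spicule neurons. The same was true of sra-10 and of sra-13, a receptor that dampens Ras signalling in vulval cells. In the srb group on chromosome II, neither srb-13, linked to the guidance of sperm, nor srb-16 had one. The gene srb-6, expressed in ADL, ASH and the phasmid neurons of the tail, had a region in replicate 1 with a signal of 13.1, at the 8.78th percentile of that list, 465 bp upstream of the gene. Distances from the 5′ ends of these 11 genes to the nearest pooled summit were 506 bp for sre-1 and 1277 bp for srb-6. They were 1796 bp for sra-13, 3131 bp for srb-13, 4015 bp for srb-16 and 4146 bp for sra-6. More remote were sra-11 at 8113 bp, sra-1 at 8725 bp, sra-10 at 10102 bp, sra-7 at 10278 bp and sra-9 at 19366 bp.

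The 8 genes of the cluster from sra-1 to sra-6, which spans 30.6 kb of chromosome II, held no pooled summit, the flanking 1000 bp on either side included, in contrast to a density of 2.58 summits per 10 kb over the genome. Likewise the 5 genes sra-32 to sra-36 held none in 19.04 kb. The third run of 5 or more sra genes, 8 genes on chromosome I that include sra-25, had 1.31 per 10 kb. Runs of sre genes ranged widely. The 5 genes from sre-18 to sre-14 on chromosome IV had 0.280 per 10 kb. On chromosome II, a run of 7 from sre-42 to sre-26 had 1.05, a run of 8 with sre-49, sre-53 and sre-56 had 1.37, and a run of 6 from sre-34 to sre-37 had 4.13, mostly outside the promoter windows. In the run of 4 from sre-44 to sre-47 there were 15 summits, 4.05 per 10 kb, and none was in the promoter window of a member. Of the members, 91 lay within 20 kb of another. In runs of 5 or more, 8 of 58 had a pooled region (13.8%), and in runs of 2 to 4, 3 of 33 (9.09%). Of the 33 that lay alone, 5 had one (15.2%). Both reproducible peaks were at genes that lay alone.

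Over all members the median distance from a 5′ end to the nearest pooled summit was 3790.5 bp, against 1148 bp for all genes. By family it was 2458.5 bp for sre, 3588 bp for srab, 3573 bp for srb and 8113 bp for sra genes. Among the neighbouring genes of other kinds it was 1334.5 bp. In sra genes the nearest summit was therefore the most remote of the 4 families, and 5.71% had one within 1000 bp compared with 47.0% of all genes.

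**Figure D3:**
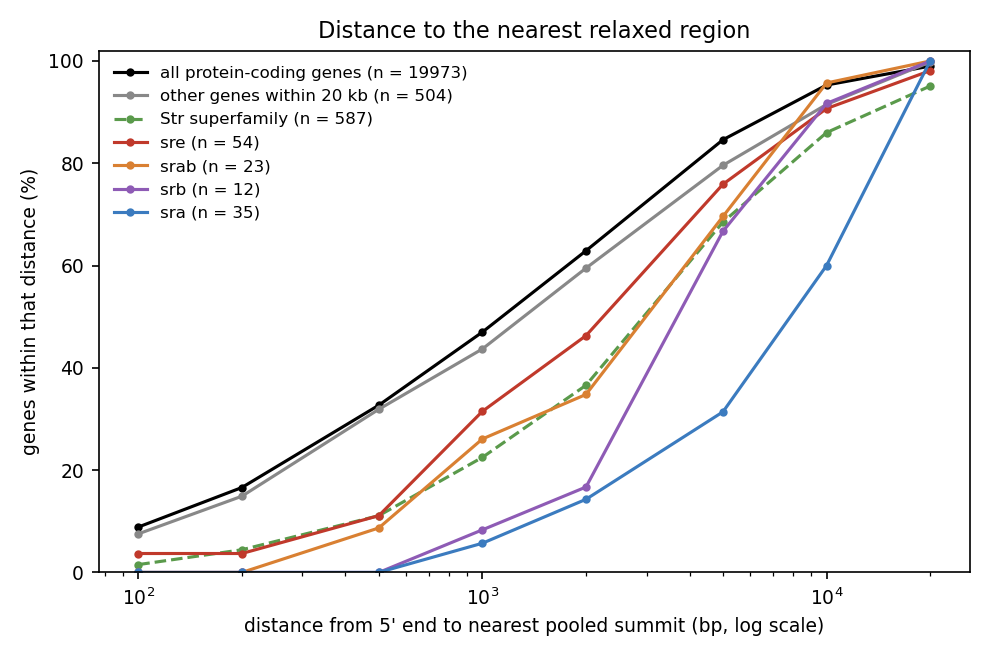
Cumulative percentage of genes (vertical axis) whose nearest pooled summit lies within a given distance of a 5′ end (horizontal log axis, bp), for the 4 families, the Str superfamily, other genes within 20 kb of a member, and all protein-coding genes. At 2000 bp the lines stand at 14.3% for sra, 16.7% for srb, 34.8% for srab, 46.3% for sre and 62.9% for all genes.

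In position, 12 of the 15 pooled summits were upstream and 3 downstream of the 5′ end, and 8 of the 12 were more than 500 bp away. The 8 include the shared region, taken from sre-53 at 982 bp, although it lies 72 bp from sre-56. The window itself reaches 1000 bp upstream and only 500 bp downstream. Positions were not counted over all pooled regions, so these counts are not a trait of the members. Intergenic sequence held 11 of 15, or 73.3%, against 42.3% of all pooled summits in promoter windows. Coding exons held 1, 6.67% against 23.4%, and introns held 2, 13.3% against 25.9%. Within the gene spans of 26 members, 21.0% against 41.4% of all genes, lay 33 pooled summits, 30 of them outside the promoter window. The 30 had a median signal of 27.9 and reached 50.1 in an intron of sre-13, 1424 bp from its 5′ end, with a signal of 34.2 in replicate 2 and none in replicate 1. None was a reproducible peak.

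**Figure D4:**
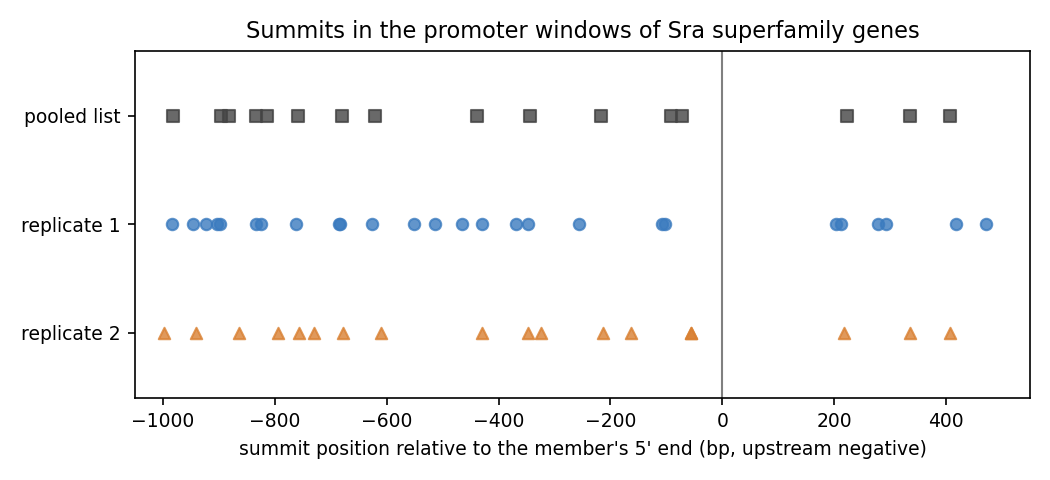
Position of each summit relative to the 5′ end of the member gene (horizontal axis, bp, upstream negative) in the pooled list and in each library. Each symbol is a summit and gene pair, and 3 pooled summits lie to the right of the line at 0.

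Gene models and sequence of the promoter windows differed between the members and all genes. A 5′ UTR was annotated for 35 of the 124 members, 28.2%, against 77.4% of all genes, so that for most members the 5′ end used here is the annotated start of the coding sequence. Among genes without an annotated 5′ UTR, 10 of 89 members (11.2%) and 27.8% of all genes had a pooled region, and among those with one, 6 of 35 (17.1%) and 44.9%. Sequence of the promoter window was mostly unique: a median of 99.9% of its 31-mers occurred once in the assembly, and the least unique, at 34.1%, was that of sra-12. By family the median was 100% for sra and srb, 99.7% for srab and 98.7% for sre, the family with the highest share of pooled regions. With windows at least 90% unique, 15 of 106 members had a pooled region, 14.2% against 43.2% of all such genes. The windows of all members were poorer in G and C, with a median of 32.5% against 35.2%, and the part of this difference in the low count was not tested.

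Motifs were described at the summits and around the starts, with both strands searched. TAATTA, the core bound by LIM homeodomains, was within 100 bp of 0 of the 15 summits, which by a limit of 3 counts allows a share of up to 20%, above the 7.94% of all promoter regions, so a difference was not detectable with this number of regions. In the 300 bases from 250 before to 50 after the start, however, it was present at 28 of the 124 members, 22.6% against 15.6% of all genes, and by family at 11 of 35 sra (31.4%), 5 of 23 srab (21.7%), 12 of 54 sre (22.2%) and 0 of 12 srb genes. TTAATTAA, which contains TAATTA, was at 3 member starts (2.42% against 2.59%). Both motifs hold only A and T, and the promoter windows of members were poorer in G and C. Their median was 32.5%, and 31.9% in sra genes, against 35.2% over all genes. Whether this bears on the higher share of TAATTA was not tested. GAGAGA was at 1 of the 15 summits (6.67% against 19.5%) and at 11 member starts (8.87% against 21.8%).

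CACCTG, one form of the E-box bound by basic helix-loop-helix factors, was near 3 of the 15 summits, those of srb-18, sre-24 and sre-26 (20% against 5.92%). Before the starts it was at 27 of the 124 members, of which 24 were sre genes, or 44.4% of that family against 8.49% of all genes. Each of the sra, srab and srb families had it at 1 gene. High shares were also found in families outside the superfamily, 82.5% for srz, 54.1% for sri and 40.5% for srh. In sre genes the 26 matches began a median of 78.5 bp before the start, 18 of them within 100 bp before it. Their positions ranged from 240 bp before the start to 10 bp after it, at sre-1. In the direction of the gene, 20 of the 26 read CAGGTG. The site is shown for 5 sre genes, with 15 bases on either side, in the direction of the gene and with the match in capitals. The 5 sites shown began 70, 80, 92, 71 and 40 bp before the start, in the order shown. In ce11 they lie, in the order shown, at chrII:12450064-12450099 (plus strand), chrII:12420646-12420681 (minus), chrV:2884604-2884639 (plus), chrII:12452905-12452940 (minus) and chrII:4683813-4683848 (minus).
sre-34: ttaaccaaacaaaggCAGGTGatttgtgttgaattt
sre-26: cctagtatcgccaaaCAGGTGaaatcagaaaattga
sre-24: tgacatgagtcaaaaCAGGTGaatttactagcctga
sre-35: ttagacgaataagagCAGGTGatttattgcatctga
sre-40: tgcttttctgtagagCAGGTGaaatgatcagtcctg
Of the genes shown, all but sre-35 and sre-40 had a pooled region, with its summit away from the site shown. A pooled region was at 7 of the 24 sre genes with the site (29.2%) and at 4 of the 30 without it. These genes share ancestry, so they are not independent, and a match is not evidence of binding.

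Other genes of chemosensation were counted from a list of 37, which holds G proteins, channels and kinases that act after the receptors, genes for receptor trafficking and cilia, regulators, and the receptor gene odr-10. A pooled region was at 12 of them, 32.4% against 41.0% of all protein-coding genes, and a reproducible peak at 1, or 2.70% against 2.61%. The latter was egl-4, which encodes a cGMP-dependent protein kinase of sensory adaptation. The egl-4 signal was 53.0 in replicate 1, 42.7 in replicate 2 and 94.8 in the pooled list, 446 bp upstream of a 5′ end. The next by pooled signal were daf-19, the RFX factor of ciliated neurons (27.6, 42.4 and pooled 51.2), and odr-4, needed to bring receptors to the cilia (37.3, 13.8 and pooled 47.3). The cyclic nucleotide-gated channel subunit gene tax-2 had a pooled region of 23.2, and tax-4 had none in any list. No list had a region at odr-10, the diacetyl receptor gene, or at the G protein gene odr-3.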

How the data were processed

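ChIP-seq regions from 2 libraries, biological replicates 1 and 2 of 1 group, were analysed in the ce11 build, which is the WBcel235 assembly. Per the file headers and deposited records, the authors made a relaxed list of peaks and background for each library and for both pooled, each from alignments with a control. They also gave a list, labelled optimal, that passed IDR. The signal value deposited by the authors is an enrichment whose scale is not stated, and it was used to rank regions within a list. The authors also gave a −log10 q-value for each region. The sources used here give no aligner, peak caller, version or read depth, so precision is judged from the number of genes or regions and from the agreement of the libraries. The ce10 lists were not used here.

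Summits were assigned to Ensembl release 115 protein-coding genes. A library region was matched to a pooled one at an overlap of at least 1 bp, and noncoding genes (tRNA, snoRNA, snRNA, miRNA, rRNA and ncRNA) were taken within 250 bp of a summit. Uniqueness was the share of 31-mers that occur once in the assembly. No test was run, because 2 libraries of 1 group offer no contrast and members are not replicates. Intervals are exact Clopper-Pearson. Python 3.11.15, numpy 2.4.6, pandas 2.3.3, scipy 1.17.1 and matplotlib 3.10.9 were used, and the assignment was tested on simulated data. Sequences are from the WBcel235 assembly of RefSeq. Named genes were all members with a pooled region, members with known roles, and those with a region in 1 library. The members, lists and motifs were chosen with earlier results of these data known. Alternatives covered the window, nearest gene, noncoding genes, uniqueness, signal threshold and each library left out.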

Additional observations from a re-analysis of the deposited data

How the results depend on the processing

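The number of members with a pooled region was 16, and 8 with a window of 500 bp upstream and 25 with 2000 bp, where 32.7% and 52.2% of all genes had one. It was 14 with the nearest gene (35.7% of all genes) or without summits near noncoding RNA genes, and 11 with regions above the median pooled signal only (25.1% of all genes). Leaving out replicate 1 or 2 gave 16 and 22. Both libraries had a region at 7 members, at 4 and 15 with the narrower and wider window, and at 5 with summits of both within 100 bp of the pooled one. Reproducible peaks were at 2 members, at 0 with the narrower window, since both summits lie more than 500 bp upstream, and at 1 with the nearest gene (sre-23) or without summits near noncoding RNA genes (sre-1). With 1 library left out, taking as many of the highest regions, the number was 2 in each. Shares over all genes are not given here for the changed counts of both libraries and of reproducible peaks. The same holds for the pooled count without summits near noncoding RNA genes. Those changes therefore cannot be set against the change over all genes. The median signal was 18.3 without replicate 1 and 16.8 without replicate 2, on the scale of a single library. For TAATTA the share was 0 to 8.33% with 1 library left out and 3.70% with the wider window. No paired analysis was possible because there is 1 group. Since read counts were not used here, depth could not be weighed.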
